A study of Homo sapiens with 12 samples.

Results

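The 3 libraries of the control condition (Cond 1), out of 12 libraries in the series, hold the transcriptome of 201B7 cells kept undifferentiated. 201B7 is an established human iPSC line. The members were taken by their label, control, and all 3 were used. RNA-Seq was carried out on cells harvested on Day 5. Every condition had its own well of a plate, and all 4 were grown on a laminin-511 fragment with a ROCK inhibitor (Y-27632) at seeding. Cond 1 stayed in StemFit, a feeder-free pluripotency medium. Cond 2 received StemFit that had been heated at 56 °C for 30 min, Cond 3 received a DMEM-based medium with 10% FBS, and Cond 4 was pipetted 20 times at passaging. The labels name skin as the origin of the line. The study calls its replicates technical in one place and describes plates prepared in triplicate in another, and the labels do not say which replicate number belongs to which plate. The spread below is therefore that between libraries of 1 line, which may be technical only, and it holds no spread between donors or clones.

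Human iPSCs in such a medium are in the state called primed pluripotency, which resembles the epiblast shortly before gastrulation. A small set of transcription factors, with OCT4 (POU5F1), SOX2 and NANOG at its centre, keeps the genome open to all germ layers while the factors of each layer stay silent. FGF and activin or NODAL signals hold this state, and BMP and WNT signals lead out of it. Primed cells are also known for a family of microRNAs of the miR-302 and miR-367 type, for rapid cycling and for the absence of HOX gene expression.

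The miR-302 and miR-367 precursors came first among the microRNA genes, and their mature sequences show how alike they are. Of 1879 entries annotated as microRNA genes, the 5 with the highest mean TPM (TPM are reads per unit of gene length, brought to an equal sum in all libraries) were the 5 members of 1 cluster on the reverse strand of chromosome 4, at chr4:112647874-112648557 of GRCh38. The 3-prime mature sequences are given from RefSeq (GRCh38.p14) with the seed, bases 2 to 8, in capitals.
miR-302a-3p: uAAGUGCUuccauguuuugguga
miR-302b-3p: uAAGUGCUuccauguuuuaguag
miR-302c-3p: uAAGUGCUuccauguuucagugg
miR-302d-3p: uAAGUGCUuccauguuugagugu
miR-367-3p: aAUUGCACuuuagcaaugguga
The 4 miR-302 sequences share the seed AAGUGCU, which 12 of the 2545 mature human sequences in that RefSeq table carry, and miR-367-3p has a seed of its own, AUUGCAC, carried by 7. MIR302D was at 224, 237 and 319 TPM in replicates 1, 2 and 3 (in this order throughout), MIR302A at 184, 200 and 198, and MIR302C at 112, 131 and 181. MIR302B was at 114, 89.96 and 129 TPM and MIR367 at 112, 49.8 and 85.3. The next entry by mean, MIR6835, was at 28.4, 49.7 and 82.7 TPM. All 5 members of the cluster lay above it in every library, MIR367 in replicate 2 by only a fraction of what 1 read is worth. MIR6835 lies within the span of HMGA1, an abundant gene described below. These are short genes, so the levels rest on 16 to 127 reads per library, and a poly(A) library holds longer transcripts that cross a hairpin, not the mature microRNA. The cluster lies within MIR302CHG, its annotated host gene (4.89, 4.56 and 4.36 TPM), and within the span of LARP7 on the opposite strand (260, 202 and 251 TPM). Because the strand setting of the count step is not given in the sources used here, reads of the cluster and of LARP7 introns cannot be told apart. The precursors of miR-371a, miR-372 and miR-373, another cluster known from human pluripotent cells, had 0 reads in every control library.

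The total count per control library was 19149924, 16690487 and 19935360, and the other 9 libraries held between 16441148 and 21871503. A gene counted as on if each of the 3 control libraries had it at 1 TPM or more, as near zero at under 0.1 in all 3, and as low otherwise. With this rule 15627 of 60617 genes were on (25.8%), and of 19986 protein-coding genes 12356 were on (61.8%), which is the background for the lists below. A further 1539 were lncRNA genes and 1505 were annotated pseudogenes. No read was counted in any control library for 31199 genes, and the median protein-coding gene had a mean of 6.02 TPM.

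Replicate 2 stood apart from the other control libraries. Transcripts of the mitochondrial genome took 12.9%, 9.87% and 14.5% of all TPM in replicates 1, 2 and 3. Among the 25 most abundant genes, all 12 nuclear genes were highest in replicate 2 and all 13 mitochondrial ones were lowest there. Of the 12356 protein-coding genes that were on, 5082 were highest in replicate 2, 4385 in replicate 1 and 2889 in replicate 3. TPM values sum to the same total in every library, and the part of the mitochondrial share in these differences was not tested. In the other conditions this share ran from 5.09% to 14.1%.

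The most abundant transcripts were those of respiration, the actin cytoskeleton and translation. MT-CO3, a subunit of cytochrome c oxidase, led at 18173, 14810 and 21123 TPM, followed by MT-CO2 at 15064 ± 2267 (mean ± SD, n = 3) and by MT-RNR2, the large mitochondrial ribosomal RNA, at 13295 ± 2428. MT-CO1 was at 12238 ± 2881, MT-ND4 at 8298 ± 1767, MT-ATP8 at 8261 ± 2356, MT-ATP6 at 7765 ± 1804, MT-ND4L at 7144 ± 1739 and MT-ND3 at 7034 ± 1079. The neighbouring ones in this order, from MT-ND4 to MT-ND3, differed by less than their SD. The tRNA gene MT-TY, at 6303 ± 1035 TPM, borders MT-CO1 on the other strand of the mitochondrial genome. MT-ND1 (3910 ± 866), MT-CYB (3492 ± 838) and MT-ND2 (3485 ± 700) also stood among the 25.
The highest nuclear gene was ACTB, which encodes beta-actin, at 8830, 10124 and 8886 TPM. EEF1A1, the elongation factor that brings tRNA to the ribosome, was at 7137 ± 477, and ACTG1, the other cytoplasmic actin, at 6967 ± 716. These 2 genes were not separated by their spread. FTL, the light chain of the iron store ferritin, was at 6301 ± 213, and HMGA1, a chromatin protein that is abundant in embryonic and fast growing cells, at 5670 ± 99.7. HMGA1 varied least of the 25, with a coefficient of variation (CV) of 1.76%. RPS2 (4920 ± 322), RPS12 (4811 ± 311), RPL8 (4058 ± 244), the chaperone HSP90AB1 (4440 ± 332), EEF2 (3898 ± 287), the actin-sequestering peptide gene TMSB10 (3807 ± 526) and PTMA, which encodes prothymosin alpha (3440 ± 404), made up the rest. Many of these genes have processed copies elsewhere in the genome, and of the 31-base words of RPS2 and PTMA 89.2% and 89.9% also occur outside the gene, so their levels depend on how reads with several matches were counted, which the sources used here do not give.

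**Figure D1:**
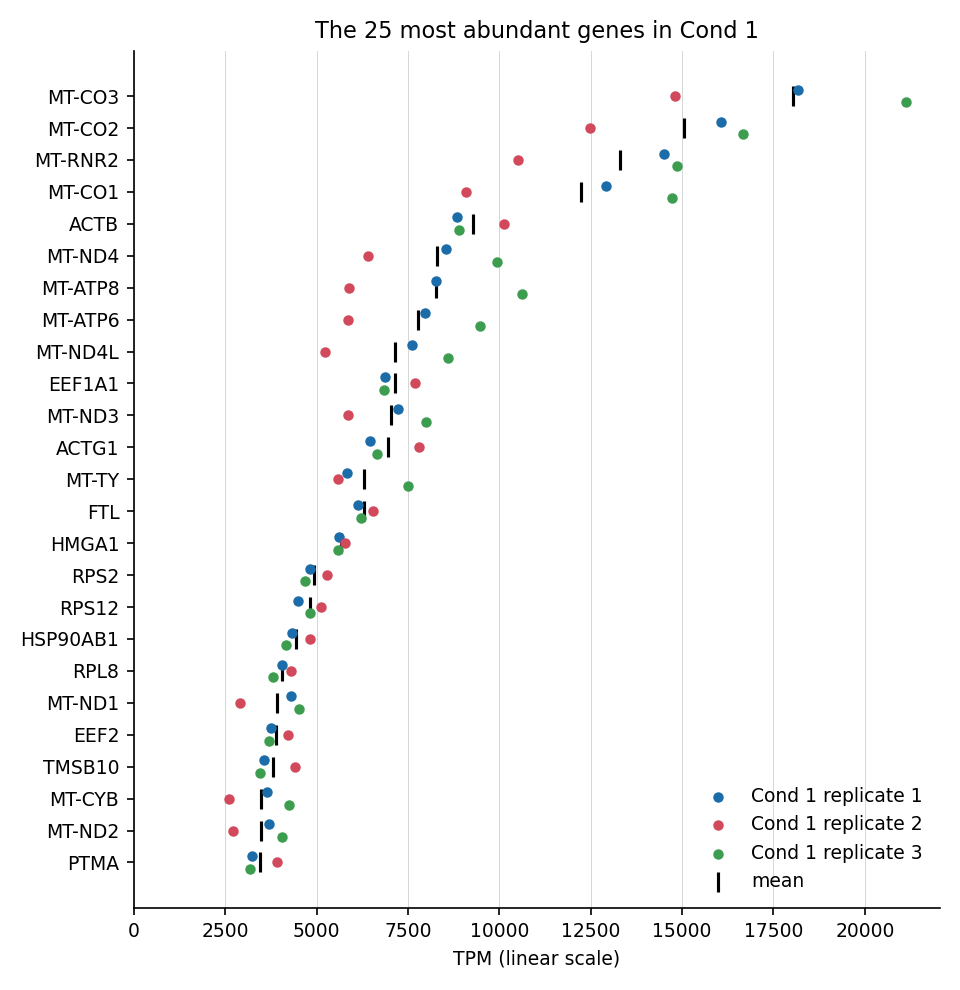
TPM on a linear axis of the 25 genes with the highest mean in Cond 1, with a coloured point for each of the 3 libraries and a bar for the mean. Replicate 2 is lowest for all 13 mitochondrial genes and highest for all 12 nuclear genes.

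Expression was concentrated in few genes. The 10 most abundant genes of a library held 10.8% ± 1.59 (SD, n = 3) of all TPM, the 100 most abundant 29.7% ± 1.504, and the 1000 most abundant 59.4% ± 0.583. By class, the 13 mitochondrially encoded proteins held 10.4%, 7.82% and 11.8% of TPM. The 83 cytosolic ribosomal protein genes, of which 79 were on, held 7.69%, 8.46% and 7.60%. Cytoskeleton genes held 2.90% ± 0.258, translation factors 1.62% ± 0.0944, chaperones 1.58% ± 0.0772, nuclear subunits of the respiratory chain 1.48% ± 0.105, hnRNP and SR splicing proteins 0.920% ± 0.0255, glycolysis enzymes 0.670% ± 0.0355 and proteasome subunits 0.510% ± 0.0306. Without replicate 2, the mitochondrially encoded proteins had a mean of 11.1%. Pseudogenes took 4.99% ± 0.138 of TPM and lncRNA genes 1.70% ± 0.0648.
Within glycolysis all 17 enzymes were on, from GAPDH (2479 ± 192 TPM), ENO1 (1051 ± 32.3), TPI1 (981 ± 51.8), PKM (465 ± 31.8) and PGAM1 (398 ± 20.3) down to ALDOC (45.1), GPI (29.8) and ALDOA (5.598). ALDOA rested on 109 to 118 reads per library, and whether the count step lowered its value was not tested. All 25 chaperones were on, with HSP90AA1 (1179 ± 29.8), HSPA8 (930 ± 23.2), CALR (831 ± 41.5) and PPIA (739 ± 70.8) after HSP90AB1, and PPIB (185), HSPE1 (118) and HSPH1 (77.1) at the low end. The 15 genes of replication licensing and the fork were all on, led by MCM3 (510 ± 11.8), PCNA (488 ± 37.3), MCM7 (423 ± 7.37), MCM6 (255.62 ± 11.3) and MCM4 (193 ± 5.98), with ORC1 (67.8), RRM2 (57.1) and TYMS (51.8) lowest.
Among cytoskeleton genes 25 of 27 were on. TMSB4X (2774 ± 336) and the actin-binding profilin gene PFN1 (936 ± 21.5) followed the actins and TMSB10, and VIM, the intermediate filament of mesenchymal cells, was at 36.5, above ACTN4 (0.119) and TUBB (0). Of 23 translation factors 20 were on, with EIF5A (763 ± 40.3), EIF2S3 (592 ± 9.09) and EIF3I (486 ± 50.6) after EEF1A1 and EEF2, and with EEF1D (0.234), EIF3K (0.2003) and EEF1G (0) lowest. The ribosomal list continued with RPL3 (2707 ± 218), and RPS18 (0.625) and RPL10L (0) were near its low end.
Of 85 nuclear subunits of the respiratory chain 75 were on, led by NDUFS5 (1724 ± 202), ATP5F1B (1722 ± 69.2), COX7C (744 ± 80.9), COX8A (625 ± 81.4) and UQCRH (624 ± 37.1), with COX7B2, COX8C and ATP5MGL at 0. Of 38 hnRNP and SR genes 32 were on, led by HNRNPA1 (1779 ± 117), HNRNPAB (1081 ± 35.6), HNRNPK (581 ± 5.69), HNRNPA2B1 (576 ± 10.2) and HNRNPC (504 ± 27.5), with HNRNPL, HNRNPCL1 and HNRNPCL4 at 0. Of 39 proteasome genes 32 were on, led by PSMA7 (478 ± 31.4), PSMB6 (477 ± 35.2), PSMB4 (457 ± 46.5), PSMB1 (427 ± 48.0) and PSMB5 (323 ± 27.4). PSMB8 and PSMB9, subunits of the immunoproteasome, and PSMB11 of the thymus were at 0, and 87.5% and 85.8% of the 31-base words of PSMB8 and PSMB9 also lie on alternate sequences of the assembly, as taken up below.
Histone genes divided by their type of transcript. All 10 replacement histones, whose mRNAs carry a poly(A) tail, were on, with H2AZ1 at 577 ± 38.2, H2AX at 464 ± 28.8, H3-3B at 380 ± 25.8 and H3-3A at 357 ± 41.6 TPM, and MACROH2A2 (77.6), H2AJ (23.0) and MACROH2A1 (19.2) lowest. Of 67 clustered histone genes, whose mRNAs mostly lack this tail, 18 were on and 14 had no read. H2BC12 was the highest of them at 67.1 ± 3.28 TPM, followed by H1-2 (17.7), H2AC6 (16.9), H2AC20 (13.9) and H2BC9 (8.48).

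**Figure D2:**
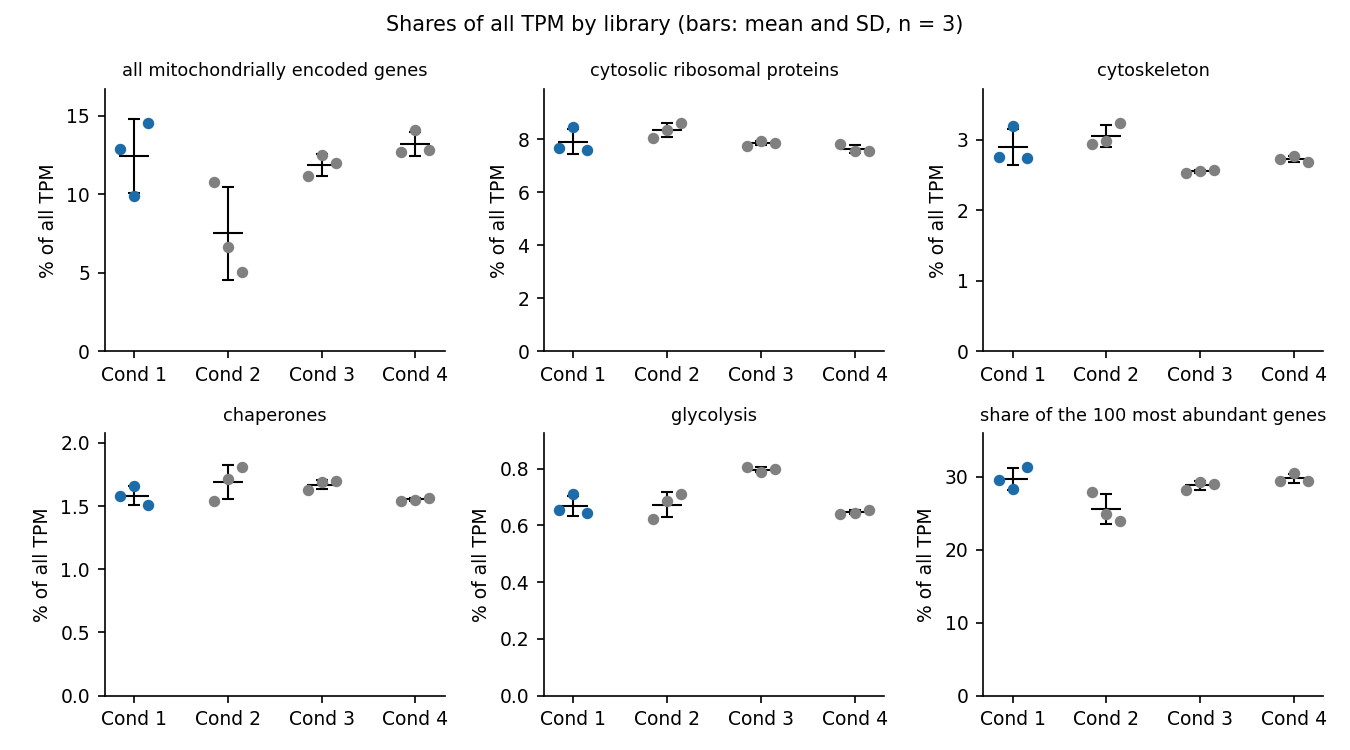
Share of all TPM (%) held by 5 gene classes and by the 100 most abundant genes of each library, with 1 point per library and bars for the mean and SD of each condition (n = 3). The control libraries, in blue, overlap with the other 9 libraries in each value, and for mitochondrial genes replicate 2 is the low point of Cond 1 at 9.87%.

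Against the other 9 libraries, none of 7 such summary values of the control libraries differed beyond the spread between libraries. In an exact two-sided permutation test of 3 against 9 libraries (220 arrangements, smallest possible p = 0.00909), the number of genes at 1 TPM or more was 17568 ± 122 in the control libraries and 17672 ± 215 in the others (p = 0.491, 0.689 after Benjamini-Hochberg adjustment over the 7 values). The share of the 100 most abundant genes was 29.7% against 28.0% (exact permutation p = 0.227, adjusted 0.689). For ribosomal proteins the shares were 7.92% and 7.95% (exact permutation p = 0.882). The shares were 10.0% and 8.88% for mitochondrially encoded proteins, 0.670% and 0.706% for glycolysis, 1.58% and 1.64% for chaperones, and 2.90% and 2.78% for the cytoskeleton (exact permutation p = 0.591, 0.545, 0.4 and 0.5, each 0.689 adjusted). Without replicate 2 the difference in mitochondrially encoded proteins was 2.22 percentage points in place of 1.13, and without replicate 3 it was 0.230. That in the cytoskeleton was 0.117 with all libraries and -0.0316 without replicate 2. The other libraries pool 3 conditions that differ among themselves, and their 3 conditions are not replicates of one another. Single conditions lay outside the control range. In Cond 3 glycolysis held 0.789% to 0.805% (Cond 1: 0.643% to 0.710%) and the cytoskeleton 2.53% to 2.57% (2.74% to 3.19%). In Cond 2 the 100 most abundant genes held 23.9% to 27.9% (28.3% to 31.3%). Cond 3 had 17672 to 18007 genes at 1 TPM or more (17434 to 17671). The other values overlapped with Cond 1 in every condition, and these separations were not tested.

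Among lncRNA genes the highest was ESRG, a transcript derived from an endogenous retrovirus and known from human pluripotent cells, at 656, 614 and 761 TPM. SNTG2-AS1 followed at 387, 255 and 352, LINC00678 at 306 ± 12.2, SNHG1, a host of small nucleolar RNAs, at 306 ± 24.2, and AC009446.1 at 284 ± 7.33. LNCPRESS1, a lncRNA named for pluripotency that was looked up after the values were seen, was at 35.6 ± 4.54, and LINC-ROR at 0.140, 0.163 and 0.351.
The 5 highest pseudogenes were copies of ribosomal protein or mitochondrial genes. RPL39P3 was at 1446, 1987 and 3229 TPM, AC005912.1 at 1968 ± 164, MTATP6P1 at 1673 ± 363, AC073861.1 at 1591 ± 118 and RPL13AP5 at 1500 ± 104. MTATP6P1, a nuclear copy of mitochondrial sequence, was low in replicate 2 (1734, 1283 and 2001 TPM) as were the mitochondrial genes. Reads of a parent gene and its copy cannot be told apart from these tables.

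The genes listed as markers of primed pluripotency were on in these cells. All 36 genes of a primed list and all 14 genes of a list of pluripotent cell surface proteins and their synthesis were on, against the background of 61.8%, with medians of 192 and 223 TPM. The lists were chosen with earlier results of these data known, so these counts are a description and not a test. At a limit of 2 TPM, 34 of the 36 primed genes were on. The highest primed genes were CD24 (2158 ± 116), LIN28A (1613, 1804 and 1651), the de novo methyltransferase gene DNMT3B (1371 ± 36.5), TDGF1, the NODAL co-receptor (1299 ± 73.0), and SOX2 (909, 938 and 878). LIN28A, on chromosome 1 from 26410817 to 26429728, encodes an RNA-binding protein that blocks the maturation of let-7. SOX2, on chromosome 3 from 181711925 to 181714436, partners OCT4 on DNA and had a CV of 3.31%.
NANOG, on chromosome 12 from 7787794 to 7799146, was at 46.7, 47.2 and 43.6 TPM, far below SOX2. Of its 31-base words 58.6% also occur elsewhere in the genome, against 7.41% for SOX2 and 0 for MYC, so its level and its place in the order below depend on how reads with several matches were counted. The same limit applies to TDGF1, ESRG and LIN28A, with 68.2%, 58.2% and 36.6% of their words elsewhere. MYC was at 56.0, 53.5 and 52.7 TPM, while its relative MYCN was higher at 188 ± 2.37. KLF4, the remaining factor of the classical reprogramming set and a marker of the naive state, was at 5.25, 4.17 and 6.15 TPM. The 3 libraries lay close together for SOX2, MYCN, MYC and NANOG, and less so for KLF4 (CV 19.2%). The order SOX2 over MYCN over MYC and NANOG over KLF4 held in each library, with MYC above NANOG by more than their SDs.
The lowest primed genes were ZFP42 (8.07 ± 0.134 TPM), GDF3 (4.11, 6.00 and 1.66) and POU5F1 (1.57, 1.03 and 1.36, on 14 to 25 reads). POU5F1, on the reverse strand of chromosome 6 from 31164337 to 31180731, encodes OCT4. The first 90 bases of its coding sequence (chr6:31170531-31170620 of GRCh38, reverse strand, start codon in capitals) are shown because its locus is also part of the assembly's alternate haplotype sequences:
POU5F1: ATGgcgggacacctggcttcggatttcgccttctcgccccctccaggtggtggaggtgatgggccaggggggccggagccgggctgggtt
The same 90 bases occur once on chromosome 6 and, letter for letter, on 2 of 16 alternate haplotype sequences of chromosome 6 in the hg38 assembly used here. Of all 31-base words of the POU5F1 transcript, 89.7% occurred on some alternate sequence and 82.3% at another place of the primary genome. Whether the authors' index held the alternate sequences is not given in the sources used here, and the part of such copies in the low value was not tested.

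**Figure D3:**
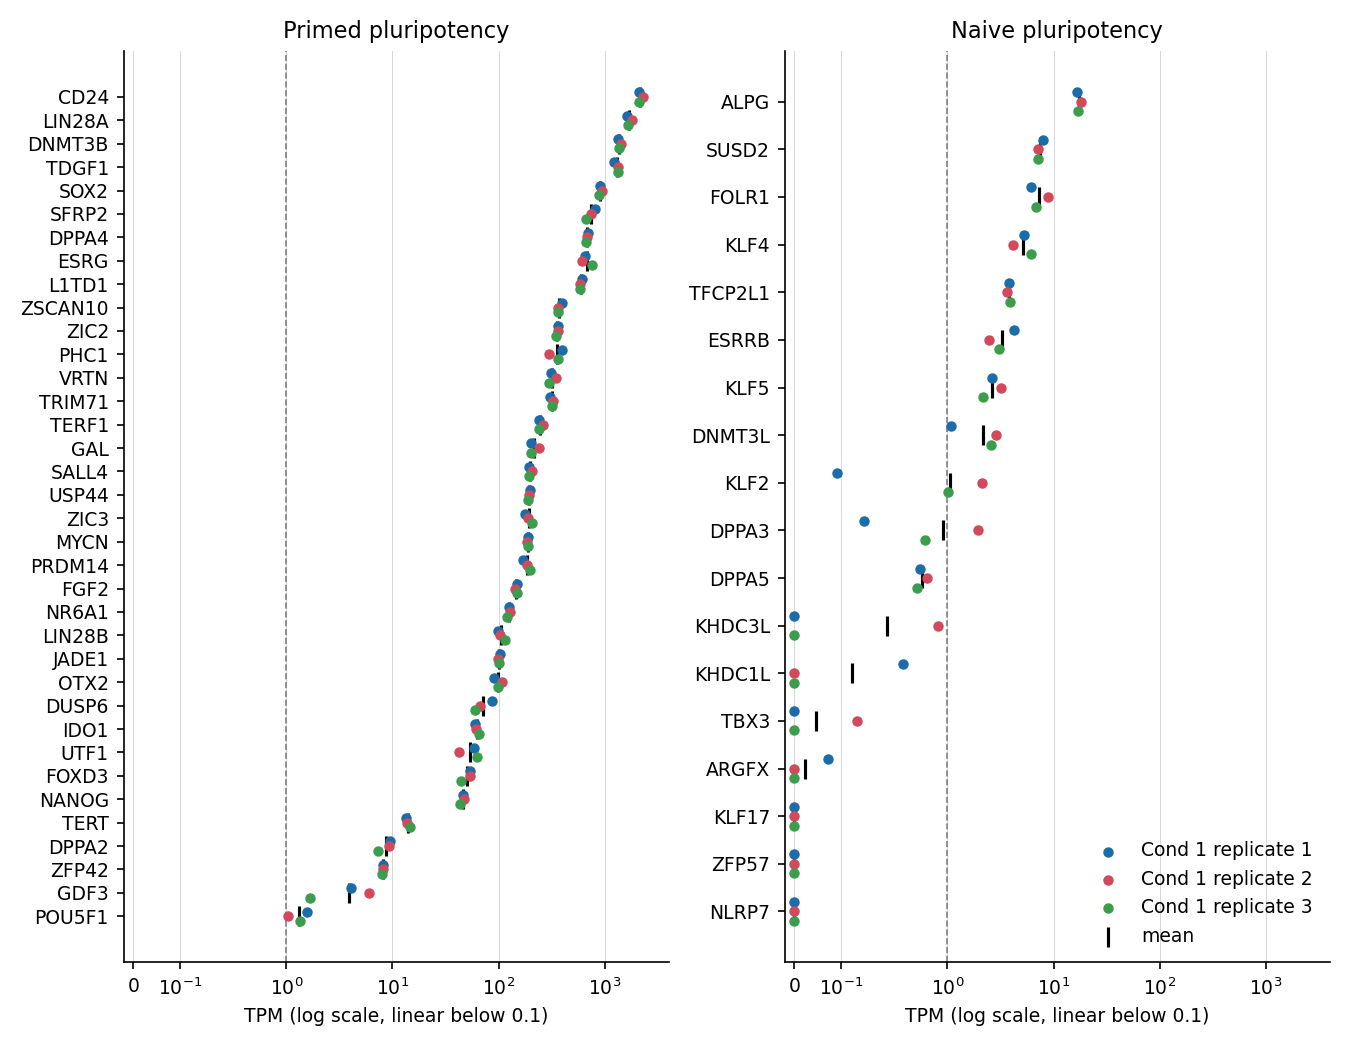
TPM of the 36 genes of the primed list and the 18 genes of the naive list in the 3 control libraries, on a log axis that is linear below 0.1, with a bar for the mean and a dashed line at 1 TPM. All primed genes lie right of the line, from POU5F1 at a mean of 1.32 to CD24 at 2158, and 8 naive genes do in all 3 libraries.

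At the surface, PODXL, the protein that carries the TRA-1-60 epitope, was at 2011, 1882 and 1926 TPM after CD24. CLDN6, a tight junction claudin of early embryos, was at 1507 ± 75.3, BST2 at 1153 ± 122 and EPCAM at 589 ± 28.4. The lowest were PROM1 (45.7 ± 3.72), ST3GAL2 (21.7 ± 0.852) and B3GALT5 (19.8 ± 1.07), of which the last 2 encode enzymes that build the SSEA glycolipids.
Of 18 genes of naive pluripotency, 8 were on, with a list median of 0.986 TPM, and none reached 20. ALPG, a placental-type alkaline phosphatase, was highest at 17.3 ± 0.795, followed by SUSD2 (7.43 ± 0.417), FOLR1 (7.35 ± 1.44), KLF4 and TFCP2L1 (3.79 ± 0.138). ESRRB, KLF5 and DNMT3L were on at means of 3.25, 2.65 and 2.16. KLF17, a factor typical of human naive cells, had no read, and for it 3 reads in a library, the limit that a count of 0 allows, would be 0.203 TPM. ZFP57 and NLRP7 were also at 0, but 94.7% and 91.4% of their words occur on alternate sequences.

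Most factors of other lineages were low or near zero. Their lists, too, were chosen with earlier results of these data known. Over 12 lists with 156 distinct genes, 34 were on (21.8%, against 61.8% of protein-coding genes), 76 were low and 46 were near zero, 35 of the latter without a read. The median gene was at 0.149 TPM, and 18 genes reached 10 TPM in every library. For the genes without a read, 3 reads would be between 0.0499 and 0.4217 TPM. In a bulk sample, few cells with much RNA of a gene and many cells with little cannot be told apart.
Several defining regulators were at or near the limit of detection. TBXT, the brachyury factor of the streak, was at 0, 0.242 and 0 TPM, EOMES at 0.0993, 0 and 0.140, SOX17 at 0, 0.542 and 0, and PAX6 at 0, 0.0513 and 0.0827. FOXA2 and GATA4 of endoderm, HAND1, TBX5 and NKX2-5 of heart, MYOD1 of muscle, GCM1 and ELF5 of trophoblast and TP63 of epidermis had no read. Of 39 HOX genes none was on: 38 had no read and HOXC13 was at 0, 0.180 and 0.0724 TPM. WNT3 and LHX1 of the streak list were at 0 as well, but 96.2% and 95.8% of their words lie on alternate sequences, and their 0 is not read as silence here.

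**Figure D4:**
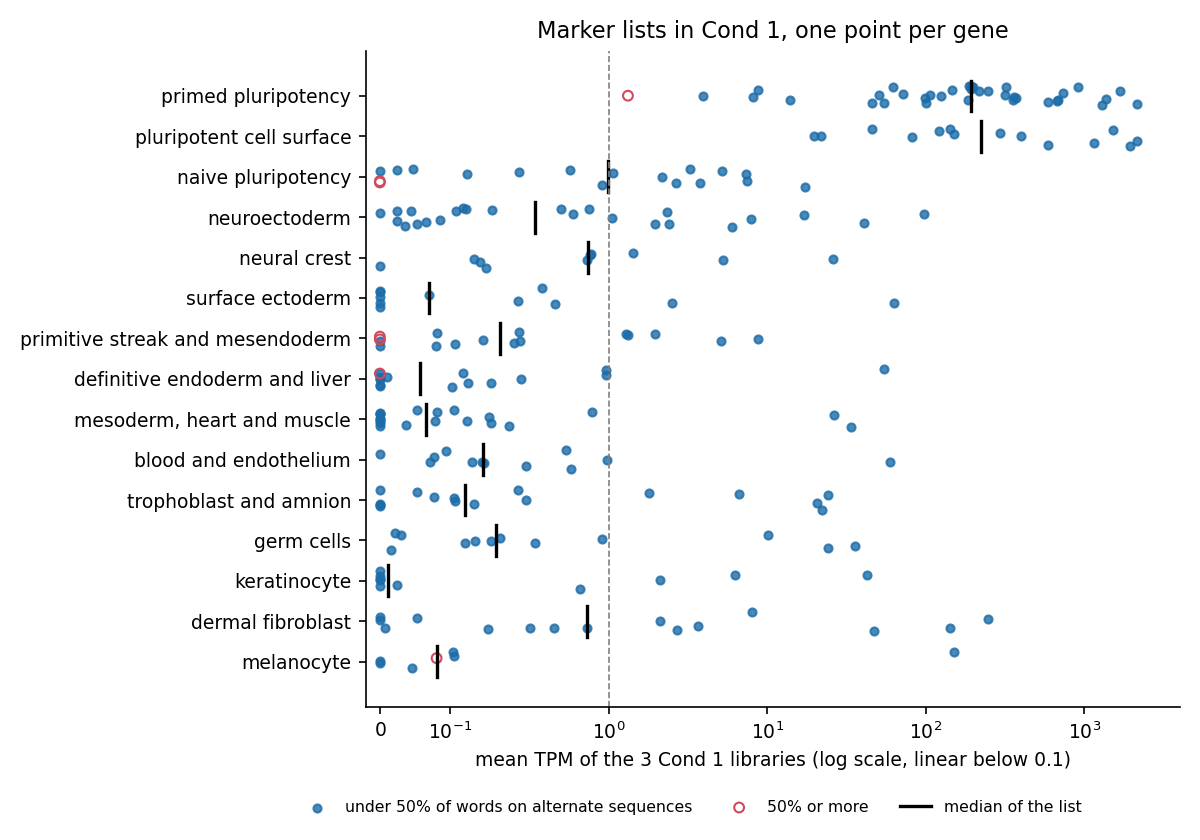
Mean TPM over the 3 control libraries of every gene of the 15 marker lists, on a log axis that is linear below 0.1, with the dashed line at 1 TPM and a black bar at the median of each list. Both primed lists centre near 200 TPM and every other list has its median below 1, while 1 or a few genes of most lists stand far to the right; red circles mark genes with at least 50% of their words on alternate sequences.

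The exceptions that were on are listed here by lineage, since the level of a single marker differed widely from its list. In the neuroectoderm list 7 of 24 were on: SOX21 (76.3, 105 and 109 TPM), the POU factor POU3F1 (45.3, 35.3 and 40.9), HESX1 (17.0 ± 1.19), LHX5 (4.27, 10.2 and 9.36), FEZF1 (5.99 ± 1.84), OTX1 (2.32 ± 0.683) and DCX (1.97 ± 0.375). SIX3 (0.736, 2.34 and 4.09) and SIX6 (0.391, 0.684 and 2.08) had means above 1 without being on. In neural crest 2 of 10 were on, ETS1 at 25.9 ± 1.32 and SOX10 at 5.22 ± 0.143, while MSX1 had a mean of 1.42. In surface ectoderm 2 of 11 were on, FOXI3, a placode factor, at 63.8, 58.3 and 67.4, and GRHL3 at 2.50 ± 0.945.
In the list of primitive streak and mesendoderm 3 of 16 were on. TBX6 was at 10.4, 9.05 and 6.75 TPM, CER1, a secreted NODAL and BMP antagonist, at 8.07, 4.01 and 3.23, and FGF8 at 3.23, 1.51 and 1.09. MESP2 and MIXL1 had means of 1.32 and 1.29, with MIXL1 at 2.33, 0.104 and 1.43. Of 16 endoderm genes 1 was on, FOXA3 at 54.7 ± 4.04, while CXCR4 and HHEX had means of 0.963 and 0.956. In the mesoderm, heart and muscle list 2 of 20 were on, the cardiac troponin I gene TNNI3 at 33.8 ± 1.96 and TCF15 at 26.5 ± 2.18. In blood and endothelium KDR, the VEGF receptor, was on at 65.8, 51.8 and 61.6, and the other 11 were not.
In the trophoblast and amnion list 5 of 16 were on, among them TFAP2C at 24.3 ± 3.24, KRT7 at 22.2 ± 1.86, IGFBP3 at 20.7 ± 3.14 and GABRP at 6.59 ± 1.13. TFAP2C is also in the germ cell list, where KIT (35.8 ± 3.47) and DAZL (10.1 ± 1.80) were on as well, 3 of 12. DDX4, the defining helicase of later germ cells, was at 0.0474, 0 and 0.

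The marker lists of skin, the labelled origin of the line, were checked for the cell types it holds. The study gives skin fibroblasts as the source cells. In the fibroblast list 6 of 15 were on: COL1A1 (246 ± 12.6 TPM), THY1 (141 ± 15.8), COL1A2 (47.0), PDGFRB (7.97 ± 0.829), COL6A3 (3.65 ± 0.845) and FBN1 (2.68 ± 0.233), and TWIST2 had a mean of 2.11. THY1 is a surface marker of pluripotent cells too. The share of this list that was on, 40%, was the highest of the 12 lineage lists. Among its other members, DCN and FAP had no read, LUM was at 0, 0.159 and 0, and PRRX1 at 0, 0 and 0.0207. In the keratinocyte list KRT10 (42.5 ± 2.97) and SFN (6.25 ± 1.07) were on, 2 of 10, KRTDAP had a mean of 2.11, and KRT5, KRT14 and TP63 had no read. Of 7 melanocyte genes only PMEL was on, at 160, 152 and 140 TPM, while TYR and DCT had no read. PMEL shares its locus with CDK2, which lies within it on the opposite strand at 33.9 ± 1.94 TPM. Among all 55 keratins 5 were on, the simple epithelial KRT18 (356 ± 33.7), KRT19 (311 ± 19.7) and KRT8 (227 ± 21.6), then KRT10 and KRT7. Of 44 collagens 29 were on, led by COL18A1 (297 ± 11.3), COL1A1, COL26A1 (242 ± 12.6), COL6A1 (161 ± 10.3) and COL9A3 (144 ± 18.3).

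The pathway lists, also chosen with earlier results of these data known, are read against the 61.8% of all protein-coding genes that were on. In the FGF and ERK list 28 of 30 genes were on (93.3%). The receptors FGFR1 (248 ± 7.19 TPM), FGFR3 (151 ± 7.30), FGFR2 (103) and FGFR4 (84.4) were on. FGF2, the ligand that primed cells need, was at 150, 142 and 150, whereas FGF8 (1.95), FGF1 (0.637) and FGF4 (0.579) were lowest. The kinase gene MAP2K2 was at 121 ± 12.5 and the ERK target ETV4 at 120 ± 13.5. DUSP6, a phosphatase induced by ERK, was at 86.7, 67.1 and 60.1 TPM.
In the NODAL and activin list 18 of 22 were on (81.8%). After the co-receptor TDGF1 came FOXH1, the DNA-binding partner of SMAD2 and SMAD3, at 209 ± 10.2, the antagonist FST at 66.6 ± 4.46, and the receptors ACVR1B (47.6 ± 2.32) and TGFBR1 (47.4 ± 3.69). NODAL itself was at 9.65, 5.13 and 4.13 TPM, and its targets LEFTY1 and LEFTY2 were at means of 7.67 and 5.35. INHBB (0.145), CFC1 (0.0363) and GDF1 (0) were lowest.
In the BMP list 15 of 20 were on. ID1, a direct target of BMP signalling, was at 794, 928 and 783 TPM, above ID2 (37.1 ± 8.02) and ID4 (35.8 ± 2.99), while ID3 was listed at 0.243, 0 and 0. The receptor BMPR1A was at 37.3 ± 0.847 and SMAD5 at 34.6 ± 1.32. The ligands BMP7 (15.1), BMP2 (8.77) and BMP4 (5.80) were lower, and BMP5 (0.0287) and GREM1 (0, with 99.1% of its words on alternate sequences) were lowest with ID3.
In the WNT list 15 of 23 were on, a share of 65.2% and so near the background. The secreted antagonists SFRP1 (921 ± 40.0 TPM) and SFRP2 (737 ± 72.0) were highest, before the receptor FZD7 (483 ± 19.6), the repressor TCF7L1 (216 ± 1.90) and beta-catenin, CTNNB1 (148 ± 2.65). The target genes SP5 (0.251) and LEF1 (0.975) were low, AXIN2 was on at 19.7, and LGR5 (0.0597), WNT3 and LRP6 were lowest. LRP6, a co-receptor that most cells express, was at 0 in every library.

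Insulin signalling had 10 of 13 genes on. IGFBP2 (365 ± 25.3 TPM), IGFBP4 (149 ± 1.77), IGF2R (44.5 ± 0.221), IGF1R (41.0 ± 1.97) and IRS2 (29.4) were highest, and the ligands IGF2 (0.183), INS (0) and IGF1 (0) lowest. Of the DNA methylation genes 8 of 9 were on. DNMT3B was far above the maintenance enzyme DNMT1 (108 ± 2.36), DNMT3A (57.2 ± 0.885), UHRF1 (41.3 ± 3.50) and TET1 (36.3 ± 1.37), and TET3 (17.7), DNMT3L (2.16) and TET2 (0.757) were lowest.
Of 21 integrins, cadherins and laminins 18 were on. E-cadherin, CDH1, was at 308, 288 and 284 TPM and N-cadherin, CDH2, at 61.5. ITGB1 (277 ± 19.1) and ITGA6 (121 ± 7.14) form a receptor for laminin-511, the protein the cells were grown on. LAMA5 (178 ± 13.6), LAMC1 (168 ± 4.77) and ITGB5 (159 ± 16.2) were also among the 5 highest, and ITGA4 (1.09), ITGA1 (0.816) and ITGB3 (0.177) were lowest.
In the cell cycle list 19 of 22 were on, with CCNB1 (316 ± 25.5), CCND1 (251 ± 3.36), CCNA2 (194 ± 6.75), MYCN and CDK1 (149 ± 6.03) on top. Of the inhibitors, CDKN1B (61.1) and CDKN1A (58.4) were on, whereas CDKN2B (0.440), CDKN2A (0.168, 0 and 0.158 TPM) and CDKN2C (0) were lowest. Of 22 imprinted genes 13 were on, led by GNAS (221 ± 7.03), MEST (118 ± 2.87), SNRPN (116 ± 10.1), NDN (93.6 ± 4.77) and PEG10 (67.9 ± 4.62). MEG3, a maternally expressed lncRNA, was at 50.4, 31.3 and 50.6. H19, PHLDA2 and ZIM2 had no read, and of their words 90.1% of H19 occur elsewhere in the genome and 96.9% of PHLDA2 on alternate sequences. DLK1 was at 1.28, 5.41 and 9.95 TPM, the widest relative spread among the imprinted genes that were on.

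Some genes that every cell needs were listed near zero, which limits every statement on silence above. Over 10 classes of such genes, 330 of 362 were on and 32 were not. Some of the 32 are known to be confined to other tissues (COX7B2, PSMB11 or RPL10L), but TUBB, the main beta-tubulin gene, had no read, and EEF1D (0.234), RPS18 (0.625), NDUFA6 (0.135) and PSMB3 (0.535 TPM) were low. In 14 of the 32, at least 50% of the words of the transcript lie on alternate sequences of the assembly, 96.7% for TUBB and 88.3% for EEF1D. These 14 also include PSMB8 and PSMB9 of the immunoproteasome, COX8C, HNRNPCL1, HNRNPCL2, HNRNPCL3 and HNRNPCL4, which are not known as genes that every cell needs. Over all protein-coding genes with a sequence to compare, 78 of 811 genes with at least 50% of their words on alternate sequences were on (9.62%), against 8041 of 13070 genes with none (61.5%), and their median levels were 0 and 6.13 TPM. The 811 include 42 olfactory receptors and 10 keratins, none of them on, and the 2 sets were not matched for gene family. Another 18 of the 32 have few or no words there, among them HNRNPL and EEF1G with no read and ACTN4 (0.119 TPM), NDUFS3 (0.0698), ATP5IF1 (0.0528) and HNRNPR (0.0402). LRP6 and CDKN2C, named above at 0, likewise have few or no words there. EEF1G and RPS18 have 82.7% and 78.2% of their words elsewhere in the genome. The pseudogene AC073861.1, named above at 1591 ± 118 TPM, is RPS18P5, a copy of RPS18. The cause of the low values named here was not tested. Of the 156 lineage genes 4 had at least 50% of their words on alternate sequences, and leaving such genes out left each list's share within 1.5 times its value. Removing so few genes, none of them on, could not have moved a share further. It does not bear on low values of genes with few or no words there.

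The spread between the control libraries was small for abundant genes and wider for rare ones, with a median above the counting value at every level. Over the 15627 genes that were on, the median CV was 8.66%, and it was 7.29% for protein-coding genes and 23.2% for lncRNA genes. The median CV was 21.8% for genes between 1 and 3 TPM, 15.2% between 3 and 10, 7.93% between 10 and 30 and 5.06% between 100 and 1000. Counting error alone, taken as 1 over the square root of the reads, gave medians of 17.6%, 9.59%, 4.45% and 1.68%. A CV over 3 libraries tends to fall below that value, so the excess over counting error is understated here. Above 1000 TPM the median CV was 6.70%, where counting error gave 0.709%. For the 36 primed genes the median CV was 5.51%, for ribosomal proteins 6.56% and for the 13 mitochondrially encoded proteins 21.3%. The common biological coefficient of variation from edgeR was 8.38%, and it was 6.72% without replicate 2, 9.10% without replicate 1 and 9.12% without replicate 3. No pair of libraries agreed within counting noise, as the same library deposited more than once would (chi-square per gene of 4.18 between replicates 1 and 3, and of 6.77 and 6.58 between replicate 2 and each of them). This does not tell technical from biological replicates.

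**Figure D5:**
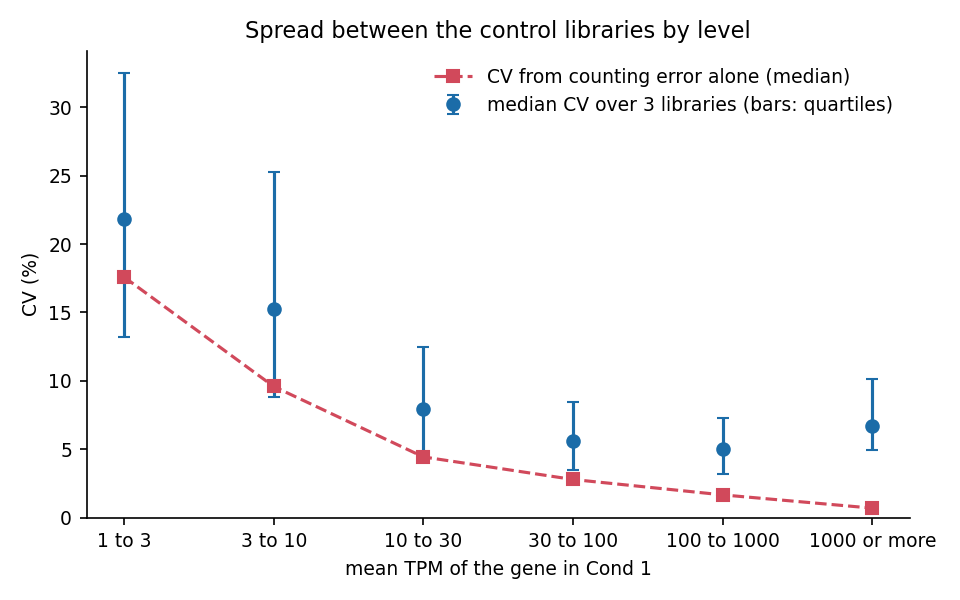
Median CV (%) of TPM over the 3 control libraries for genes that were on, by mean TPM, with bars from the lower to the upper quartile of genes, and the median CV that counting error alone would give. The medians fall from 21.8% to 5.06% with level and rise to 6.70% at 1000 TPM or more, away from the counting line.

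Of 9627 genes with a mean of at least 10 TPM, 468 (4.86%) had a CV above 20%. The 10 largest CVs belonged mostly to short non-coding genes with few reads: MIR590 (116%), an RF00019 entry (109%), SNORA33 (103%), ANKRD1 (102%), AL049830.1 (101%), SNORD99 (100.4%), AP000553.7 (98.3%), CHMP4BP1 (95.6%), SNORD59A (95.1%) and MIR4326 (88.5%). ANKRD1, a target of YAP signalling and the 1 protein-coding gene among them, was at 3.39, 5.46 and 23.1 TPM on 37 to 268 reads. Among protein-coding genes with at least 20 reads in each library, a view chosen after the values were seen, the metallothionein genes MT1G (21.1, 33.6 and 11.4 TPM), MT1H (13.3, 13.2 and 4.72) and MT1E (15.2, 19.1 and 9.08) came next with the chemokine gene PF4 (13.8, 17.2 and 5.65). All 3 metallothioneins, which bind zinc and copper, were lowest in replicate 3. TAC1 (29.7, 10.4 and 23.3) and GOLT1A (24.2, 9.26 and 16.4) also varied widely.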

How the data were processed

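Poly(A) RNA of 12 libraries (3 per condition, Cond 1 being the control) was sequenced by the authors from strand-specific libraries. Per the labels and the methods, the authors used bcl2fastq 2.20.0.422, cutadapt 4.1, fastp 0.20.1, HISAT2 2.1.0, the GRCh38 genome and featureCounts. The strand setting and the counting of reads with several matches are not given in the sources used here. The authors deposited counts per gene without normalization and TPM values, which equal the count over the gene's length times a constant for each library. Counts could be read for 58575 genes, and 5 broken lines were left out. A further 2042 genes had a TPM but no count, including all 37 of the mitochondrial genome, and entered results on TPM only.

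Levels were taken from the TPM table as deposited, with no pseudocount. Means are given with SD over 3 libraries. CV is SD over mean of TPM. The common biological coefficient of variation was estimated from the counts of Cond 1 with edgeR 4.0.16 (TMM, its filter on low counts, 15443 genes) in R 4.3.3. Summary values were compared by exact two-sided permutation tests in scipy 1.17.1, and no gene was tested between conditions. Coordinates are from GENCODE release 44, in which 99.4% of identifiers were found. To find copies, each main transcript was cut into words of 31 bases, and the percentage of them found on the 261 alternate sequences of hg38 or at another place was taken. This step and the edgeR step were tested on simulated data. Depth of 16690487 to 19935360 counts puts 3 reads, the limit that a count of 0 allows, at 0.0499 to 0.4217 TPM for the lineage genes without a read, for counting error only.

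Genes named were the 25 highest, the 5 highest lncRNA genes and pseudogenes, members of other lineages at 1 TPM or more, the 5 highest and 3 lowest members of pluripotency, pathway and class lists (the 3 lowest not where many are at 0), and the 10 largest CVs at 10 TPM or more. Genes of the Y chromosome and XIST were left out. A few genes that these rules would name are not reported here. The members and lists were chosen with earlier results of these data known. The microRNA cluster, the sequence copies, the genes near zero in ubiquitous classes and other single genes named beside a list were chosen after their values were seen. Alternatives were other thresholds, scalings (DESeq2 1.42.0 size factors among them), filters, a pseudocount of 0.1 against 1 for the SD of log2 TPM, a replicate block and each library left out in turn.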

Additional observations from a re-analysis of the deposited data

How the results depend on the processing

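The number of genes that were on stayed within 1.5 times its value under all 8 alternatives. It ran from 13855 at 2 TPM to 17549 for a mean of at least 1 TPM, and from 16087 to 16285 with a library left out. The share of the 100 most abundant genes, 29.7% of TPM, was 21.7% without mitochondrial genes and 16.8% as a share of counted reads. The latter holds no mitochondrial genes and no correction for length. The median CV of 8.66% was 26.3% without a filter on low values, which adds rare genes, 6.34% at 10 TPM or more, and 6.12% to 7.71% with a library left out. Of 205 recomputed list counts 7 moved by over 1.5 times, in surface ectoderm, endoderm, blood, clustered histones and olfactory receptors. For the values set against the other 9 libraries no adjusted p reached 0.05 under any alternative, so the directions have no call. The difference in ribosomal proteins, -0.0348 percentage points, was 0.117 without mitochondrial genes and ran from -0.307 to 0.125 with a control library left out. The difference in the cytoskeleton, 0.117, ran from -0.0316 to 0.196, and that in mitochondrially encoded proteins, 1.13, from 0.230 to 2.22. Against Cond 4 alone, the differences were -0.0628 for the 100 most abundant genes, 0.265 for ribosomal proteins, -0.615 for mitochondrially encoded proteins, 0.0225 for glycolysis and 0.0307 for chaperones, and 3 against 3 cannot give a p below 0.1. The labels do not say that a replicate number marks a plate, so the numbers were not taken to pair the libraries. Over 18 pairs of same-numbered libraries the deviations from the condition means correlated between -0.0432 and 0.0682. With the replicate block, the difference of 1.66 percentage points in the share of the 100 most abundant genes had an adjusted exact permutation p of 0.802, and the others had 0.802 or 0.906, with a smallest possible p of 0.0312. Genes at 1 to 3 TPM rest on a median of 32.3 reads, which limits their precision.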

Other observations

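Neuroectoderm genes below 10 TPM were mostly lowest in replicate 1 of Cond 1. This was noticed in the data, after the values of other marker and pathway lists had been seen, and is given as a description with no test. Of the genes above this limit, SOX21 was lowest in replicate 1 too, but POU3F1 was highest there. Among the 13 neuroectoderm genes with at least 10 reads over the 3 control libraries and a mean under 10 TPM, 9 were highest in replicate 3 and 11 were lowest in replicate 1. Among all 5802 protein-coding genes with the same limits, 31.8% were highest in replicate 3 and 1742 genes were lowest in replicate 1. FEZF2 was at 0, 0.386 and 1.40 TPM in replicates 1, 2 and 3, RAX at 0.0975, 0.398 and 1.01, and POU3F2 at 0.0744, 0.0868 and 0.385. The summed level of the 13 genes was 15.1, 27.8 and 28.98 TPM. In neural crest 5 of 7 genes were highest in replicate 3, among them SNAI2 at 0, 0.517 and 1.77 TPM.

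The list of primitive streak and mesendoderm went the other way. Of its 7 genes within these limits, 5 were highest in replicate 1, against 36.4% of all genes, and the summed level was 25.99, 16.7 and 14.03 TPM. TBX6, CER1, FGF8 and MESP2 were each highest in replicate 1 and lowest in replicate 3, as was NODAL in the pathway list. WNT3A of the streak list went the other way, at 0, 0.354 and 0.456 TPM. The NODAL targets LEFTY1 (6.24, 9.63 and 7.13) and LEFTY2 (4.92, 5.75 and 5.37) were lowest in replicate 1. Of 10 genes of the NODAL list within these limits, 5 were highest in replicate 1, 4 in replicate 2 and 1 in replicate 3. Members of a list are not replicates, the genes of a list may move with each other, and the part that depth, mitochondrial share or cell state has in these differences was not tested.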
